A study of Mus musculus with 9 samples.

Results

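The genes described here encode 10 enzymes and carriers that clear superoxide and peroxides: Sod1, Sod2, Sod3, Cat, Gpx1, Gpx3, Gpx4, Prdx3, Prdx5 and Txn2. They were selected by gene name, as a set put together with earlier results of these data known, and each of the 10 names matched 1 row among the 55401 genes of the table. RNA sequencing of primary neonatal mouse ventricular myocytes, taken from 1 day old wild-type C57BL/6J mice and cultured in DMEM with 10% FBS, gave 9 libraries in 3 groups of 3. Control cells stayed in normal oxygen with complete medium. Hypoxia cells were moved to DMEM lacking glucose and serum and sealed in an oxygen-absorbing chamber for 6 h. Hypoxia + rSRGN cells went through the same 6 h with recombinant SRGN (serglycin, a proteoglycan) added to the medium, at a dose not given in the sources used here. Low oxygen and the loss of glucose and serum therefore cannot be told apart in either comparison with control, whereas hypoxia + rSRGN and hypoxia differed, as far as the labels say, in the added protein alone. The labels do not say whether the 3 libraries of a group came from separate isolations, so p-values measure the spread between these libraries, which may be technical.

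Superoxide, formed when an electron leaks to oxygen in mitochondria or is passed to it by oxidases, is converted by superoxide dismutases to hydrogen peroxide. Catalase, glutathione peroxidases and peroxiredoxins then reduce the peroxide to water, the latter families with electrons from glutathione and thioredoxin. The beating heart muscle cell is rich in mitochondria, and the enzymes are divided between its compartments. Sod2, Prdx3 and Txn2 act in the mitochondrial matrix, Prdx5 in mitochondria, peroxisomes and cytosol, Cat in peroxisomes, Sod1, Gpx1 and Gpx4 largely in the cytosol with a share in mitochondria, and Sod3 and Gpx3 outside the cell.

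Gpx1, Gpx3 and Gpx4 are selenoproteins: a TGA codon, which elsewhere ends translation, is read in them as selenocysteine, the residue that reacts with peroxide. The 63 bases around that codon, which capitals mark, are shown because they hold the active-site selenocysteine of each of the 3 genes. They were read from the principal transcripts of GENCODE vM21 on GRCm38, 5′ to 3′.
Gpx1: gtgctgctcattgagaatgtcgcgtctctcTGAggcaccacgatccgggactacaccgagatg
Gpx3: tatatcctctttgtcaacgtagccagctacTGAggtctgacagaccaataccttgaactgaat
Gpx4: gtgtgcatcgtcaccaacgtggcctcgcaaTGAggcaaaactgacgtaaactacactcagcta
The codon is number 47 of Gpx1, in exon 1 of 2 (chr9:108339451-108339453, plus strand). In Gpx3 it is number 73, in exon 2 of 5 (chr11:54907256-54907258, plus strand), and in Gpx4 also number 73, in exon 3 of 7 (chr10:80054737-80054739, plus strand). Gpx1 and Gpx4 were identical at 35 of the 63 bases, Gpx3 and Gpx4 at 29, and Gpx1 and Gpx3 at 27. In hypoxia against control, described below, Gpx1 was called higher, Gpx3 lower and Gpx4 was not called.

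The promoters of Sod1 and Sod2, which had opposite changes, are also shown (RefSeq, GRCm38.p6, 250 bases before and 50 after the start site, on the strand of the gene). Capitals mark matches on either strand to GCGTG, a core of sites for hypoxia-inducible factors, and to TGACNNNGC, the core of the antioxidant response element.
Sod1 promoter, chr16:90220512-90220811, plus strand: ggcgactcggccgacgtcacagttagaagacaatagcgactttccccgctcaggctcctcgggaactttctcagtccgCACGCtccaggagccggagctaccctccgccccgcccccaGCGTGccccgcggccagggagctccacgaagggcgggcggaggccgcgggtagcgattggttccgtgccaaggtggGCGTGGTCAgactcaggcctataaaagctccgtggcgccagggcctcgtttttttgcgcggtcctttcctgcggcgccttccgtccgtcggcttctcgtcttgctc
Sod2 promoter, chr17:13007589-13007888, plus strand: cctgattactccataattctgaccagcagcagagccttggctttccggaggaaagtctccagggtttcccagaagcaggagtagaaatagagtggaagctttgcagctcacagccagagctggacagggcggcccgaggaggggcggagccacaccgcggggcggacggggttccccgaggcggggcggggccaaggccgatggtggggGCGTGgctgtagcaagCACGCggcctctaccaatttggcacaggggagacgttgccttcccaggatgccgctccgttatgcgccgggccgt
Sod1 held the antioxidant core once, at position -56 from the start site, where it overlaps the last of the gene's 3 GCGTG matches (-172, -132 and -56). Sod2 held GCGTG at -41 and -25 and no antioxidant core. TGACNNNGC occurs in 12.4% of the 32851 mouse promoters of this length and GCGTG in 32.4%, so a match in a single promoter is common. The GC content of these windows was 66.7% for Sod1 and 64.3% for Sod2, against a median of 52.7% over all promoters.
Promoters were found for 9 of the 10 genes, all but Sod3. Of their 12 windows 4 were of Gpx4, some of them overlapping. A gene is given as matched if any of its windows matched, so Gpx4 had more chance of a match. The shares over all promoters are per window. GCGTG matched in 6 of the 9 (Sod1, Sod2, Gpx1, Gpx4, Prdx3 and Prdx5), with the most matches in a single window, 4, in Prdx5, which was not called. In these 9 genes, the other hypoxia core, ACGTG (19.6% of promoters), matched in Gpx1 alone, at -183, and TNAAGGTCA, a half-site of estrogen-related receptors (1.28% of promoters), matched in none. The palindromic site of NRF1 (4.6% of promoters) matched in Gpx4 alone. Cat, Gpx3 and Txn2 held no match to any of the motifs searched. Such matches describe letters in a window and show no binding.

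Total counts were 21669017 to 22781557 in the control libraries and 16583985 to 20826701 in the other 6. Levels are given as CPM, counts scaled to a common library size by the trimmed mean of M-values (TMM), and a change was called at an adjusted p below 0.05 with a fold change of at least 1.5 (edgeR's quasi-likelihood test, Benjamini-Hochberg adjustment over the 16762 genes that passed the filter on low counts). All 10 genes passed that filter, the lowest raw count of any of them in any library being 723. Of 15 genes of the response to hypoxia listed as a check of the labels, 5 were higher and 7 lower in hypoxia than in control. Over all genes 26.4% were called higher and 25.1% lower, and this list gave the label no single direction. The labelled cell type was present, but its share of the RNA differed by group: the summed level of 12 cardiomyocyte markers was 46400 to 57400 CPM in control, 3920 to 6070 CPM in hypoxia and 7770 to 8340 CPM in hypoxia + rSRGN. The 8 fibroblast markers summed to 8660 to 10200 CPM in control and to 17100 to 19900 CPM in hypoxia. In such bulk libraries fewer cells of a type and less RNA per cell cannot be told apart.

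In hypoxia against control, transcripts of Sod3, Gpx1 and Sod1 rose 2.58-fold, 1.71-fold and 1.58-fold, while those of Sod2, Gpx3 and Prdx3 fell 3.65-fold, 2.77-fold and 1.92-fold. Cat, Gpx4, Prdx5 and Txn2 were not called. Over all genes tested, 26.4% were called higher and 25.1% lower in this comparison, so 3 of 10 in each direction is near the background. The median log2 fold change of the 10 genes was -0.10, against 0.05 over all genes.

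**Figure D1:**
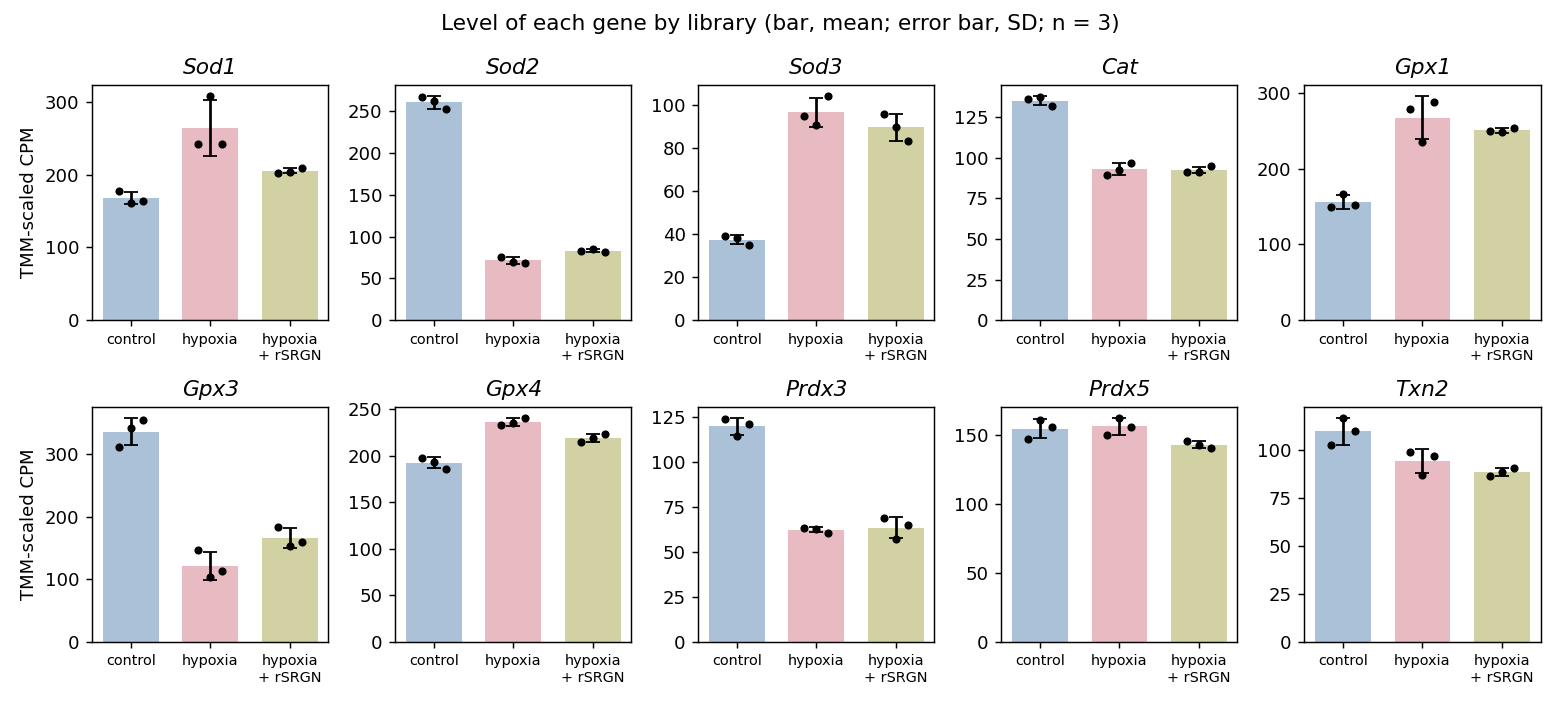
Level of each of the 10 genes in the 9 libraries, in TMM-scaled CPM on a linear axis that starts at 0. Bars give the mean of 3 libraries, error bars the SD and points the libraries. Sod2, Gpx3 and Prdx3 are lower and Sod1, Sod3 and Gpx1 higher in every hypoxia library than in every control library, and Prdx5 overlaps.

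Among the dismutases, Sod2, the manganese enzyme of the mitochondrial matrix (chr17:13006846-13040063 on GRCm38, plus strand), was at 267, 262 and 253 CPM in the control libraries, at 75.8, 69.8 and 68.5 CPM in hypoxia, and at 82.9, 84.7 and 81.0 CPM in hypoxia + rSRGN. The groups did not overlap, and the highest hypoxia library lay far below the lowest control library. The log2 fold change for hypoxia against control was -1.87 ± 0.07 (SE, adjusted p = 5.75e-16 by edgeR).

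Sod3, the copper and zinc enzyme secreted to the matrix outside cells (chr5:52363791-52371418, plus strand), was at 39.0, 38.2 and 34.9 CPM in control, at 94.9, 90.8 and 104 CPM in hypoxia, and at 95.7, 89.6 and 83.2 CPM in hypoxia + rSRGN. All 6 libraries of the groups in low oxygen lay above the 3 control libraries. The log2 fold change was 1.37 ± 0.08 (SE, adjusted p = 1.3e-12 by edgeR). Sod1, the copper and zinc enzyme of the cytosol (chr16:90220754-90226329, plus strand), was at 177, 161 and 164 CPM in control and at 242, 308 and 241 CPM in hypoxia. Hypoxia library 2 stood above the other hypoxia libraries, and the log2 fold change of 0.66 ± 0.08 (SE, adjusted p = 4.21e-07 by edgeR) was 0.53 without that library, which is under the fold limit and ends the call.

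Of the glutathione peroxidases, Gpx3, the secreted form (chr11:54902453-54910377, plus strand), was at 312, 343 and 354 CPM in control, at 147, 103 and 114 CPM in hypoxia, and at 184, 153 and 160 CPM in hypoxia + rSRGN. Each hypoxia library was below the lowest control library, with hypoxia library 1 the highest of the 3. The log2 fold change was -1.47 ± 0.10 (SE, adjusted p = 1.99e-11 by edgeR). Gpx1, a largely cytosolic form (chr9:108338903-108340343, plus strand), went the other way, at 150, 166 and 152 CPM in control, 279, 235 and 288 CPM in hypoxia, and 250, 248 and 254 CPM in hypoxia + rSRGN. Its groups did not overlap, and its log2 fold change was 0.78 ± 0.08 (SE, adjusted p = 1.03e-08 by edgeR).

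Gpx4, which reduces lipid peroxides within membranes and restrains ferroptosis (chr10:80047166-80056439, plus strand), was at 198, 194 and 186 CPM in control and at 234, 235 and 241 CPM in hypoxia. The groups were apart, but the log2 fold change of 0.30 ± 0.07 (SE, adjusted p = 0.000382 by edgeR) was under the fold limit. Its value is less certain than the others: 68.9% of the 50-base words of its principal transcript also occur in 2 other gene models, one of them the pseudogene Gpx4-ps2, which itself held 746 to 1080 counts per library. Of the Sod1 transcript, 23.1% of such words occur in the pseudogene Gm8566, which held 60 to 119 counts.

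Of the peroxiredoxins, Prdx3, the main peroxide reductase of the mitochondrial matrix (chr19:60864051-60874556, minus strand), was at 124, 115 and 121 CPM in control, at 63.3, 62.9 and 60.8 CPM in hypoxia, and at 68.8, 57.0 and 64.9 CPM in hypoxia + rSRGN. The control libraries lay well above all others. The log2 fold change was -0.94 ± 0.08 (SE, adjusted p = 3.15e-10 by edgeR). Prdx5, an atypical peroxiredoxin that works as a monomer (chr19:6906697-6910106, minus strand), was at 147, 161 and 156 CPM in control and at 151, 163 and 156 CPM in hypoxia, and the groups overlapped. Its log2 fold change was 0.02, with a 95% interval from -0.13 to 0.16, and its sign changed with the scaling. Counting was without strand, and 409 exon bases of Prdx5 (19.1%) overlap Trmt112 on the opposite strand, so fragments there cannot be assigned to either gene.

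Txn2, the thioredoxin that passes electrons to Prdx3 and Prdx5 in mitochondria (chr15:77915047-77929006, minus strand), was at 102, 117 and 110 CPM in control and at 98.8, 87.0 and 97.0 CPM in hypoxia. The groups were apart by a narrow margin, and the log2 fold change of -0.22 ± 0.07 (SE, adjusted p = 0.0122 by edgeR) was not called. Cat, the peroxisomal enzyme that splits hydrogen peroxide without a cofactor donor (chr2:103453849-103485160, minus strand), was at 136, 137 and 132 CPM in control and at 89.5, 92.3 and 96.8 CPM in hypoxia. The groups were well apart, but the log2 fold change of -0.54 ± 0.07 (SE, adjusted p = 3.01e-07 by edgeR) stayed just under the fold limit. With no fold limit, 9 of the 10 genes passed (4 higher and 5 lower, all but Prdx5), where 70.9% of all genes did. The control and hypoxia libraries did not overlap for the same 9 genes, against 73% of all genes.

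By compartment, of the genes whose products lie largely in mitochondria Sod2 and Prdx3 were called lower and Txn2 (-0.22) was not called, where 25.1% of all genes were called lower. Prdx5, divided between compartments, was not called (0.02). Of the secreted genes Sod3 was called higher and Gpx3 lower. Of the mainly cytosolic genes, whose products also have a share in mitochondria, Sod1 and Gpx1 were called higher, where 26.4% of all genes were, and Gpx4 (0.30) was not called. The markers of cardiomyocytes and fibroblasts moved with these differences: 12 of 12 cardiomyocyte markers fell (median log2 fold change -3.67) and 6 of 8 fibroblast markers rose (median 0.90). Of the other cell types, 6 of 7 endothelial, 7 of 8 macrophage and 1 of 5 smooth muscle markers fell. The summed levels went from 67 to 92.6 CPM in control to 42.6 to 51.7 CPM in hypoxia for endothelial cells and from 37.9 to 46.1 CPM to 10.6 to 11.3 CPM for macrophages, and no marker of these 5 lists was at 0 in a whole group. None of the 6 erythroid markers passed the filter, with sums of at most 0.591 CPM in any library, and Hbb-bs, Hba-a1 and Hba-a2 were at 0 in control. The part of cell composition in the changes of the 10 genes was not tested.

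**Figure D2:**
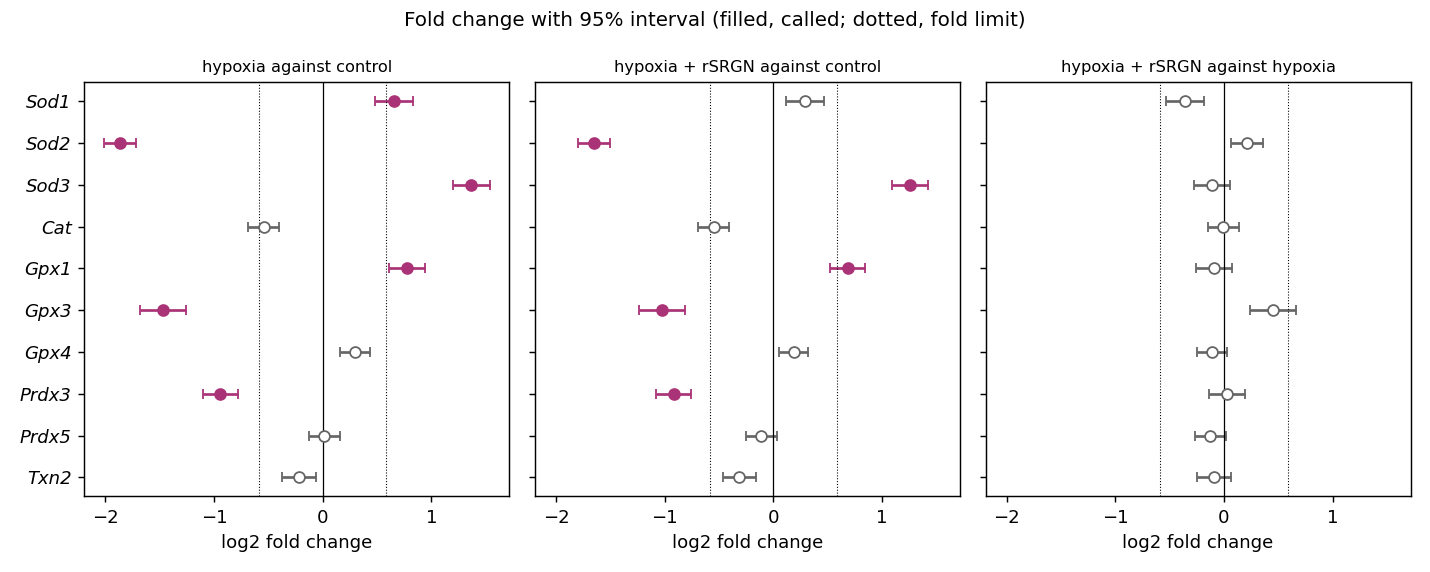
Log2 fold change of each gene in the 3 comparisons, with its 95% interval from edgeR. Filled points were called, open points were not, and dotted lines mark a 1.5-fold change. Hypoxia + rSRGN and hypoxia were each compared with the same 3 control libraries, and no gene is filled in the comparison of hypoxia + rSRGN with hypoxia.

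The comparison of hypoxia + rSRGN with hypoxia asks whether the added protein altered the response. None of the 10 genes was called, either by edgeR or by DESeq2, where 2.27% of all genes were called higher and 0.859% lower by edgeR. At an unadjusted p below 0.05, 3 of the 10 passed (Sod1, Sod2 and Gpx3), near the 29.4% of all genes that did. The same 3 had an adjusted p below 0.05 when no fold limit was set, where 16.6% of all genes did. The mean level of each of the 3 with rSRGN lay between its hypoxia and its control mean. The means of Sod3, Gpx1, Gpx4 and Prdx3 did so as well, and those of Cat, Prdx5 and Txn2 did not. Both differences use the same hypoxia libraries, whose spread alone favours this order, and its share over all genes was not counted.

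Gpx3 had the largest of these differences, with 184, 153 and 160 CPM in hypoxia + rSRGN against 147, 103 and 114 CPM in hypoxia. All 3 libraries with rSRGN lay above the 3 without, and the log2 fold change was 0.45 ± 0.10 (SE, adjusted p = 0.00462 by edgeR). Without hypoxia library 1, the highest of its group for this gene, it was 0.61 with an adjusted p of 0.000113 by edgeR, past the fold limit. Leaving out other libraries brought it as low as 0.34.

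Sod1 was lower, at 203, 204 and 209 CPM against 242, 308 and 241 CPM. The groups did not overlap, and the log2 fold change was -0.36 ± 0.08 (SE, adjusted p = 0.00531 by edgeR). Without hypoxia library 2, the highest for Sod1, it was -0.23. Sod2 differed by 0.22 ± 0.07 (SE, adjusted p = 0.0407 by edgeR) on the log2 scale, its 3 libraries with rSRGN all above the 3 without and all far below control.

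For the other 7 genes the log2 fold changes ran from -0.13 for Prdx5 to 0.03 for Prdx3, with adjusted p from 0.222 to 0.967 by edgeR. The 95% intervals bound what was measured: from -0.15 to 0.14 for Cat, from -0.14 to 0.19 for Prdx3 and from -0.27 to 0.05 for Sod3. None of the 7 intervals reached a 1.5-fold change in either direction. In all, 5 of the 10 genes did not overlap between the groups (Sod1, Sod2, Gpx3, Gpx4 and Prdx5), where 32% of all genes did not. In the same libraries 10 of 12 cardiomyocyte markers and 0 of 8 fibroblast markers were called higher, with 1 fibroblast marker lower and 1 endothelial and 1 smooth muscle marker higher, and the cardiomyocyte sum was higher in each rSRGN library than in any hypoxia library. The part of this in the small differences of Sod1, Sod2 and Gpx3 was not tested.

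Hypoxia + rSRGN against control gave 2 genes higher (Sod3 and Gpx1) and 3 lower (Sod2, Gpx3 and Prdx3), against 24.1% of all genes higher and 24.7% lower. These values share the control libraries with the first comparison and are not a repeat of it. The log2 fold changes were 1.26 for Sod3, 0.68 for Gpx1, -1.65 for Sod2, -1.02 for Gpx3 and -0.92 for Prdx3, each with an adjusted p of at most 8.26e-08 by edgeR. Sod1, at 0.29 ± 0.08 (SE, adjusted p = 0.00383 by edgeR), was not called here, nor were Cat (-0.55), Gpx4 (0.19), Prdx5 (-0.11) and Txn2 (-0.31). With no fold limit 9 of the 10 genes passed (68.6% of all genes did), and all 10 were without overlap between the groups, as were 73.3% of all genes.

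The makeup of each family was expressed as each gene's share of the family's summed counts per kilobase in a library, which does not depend on library scaling. Sod2 held 33.3% ± 0.62 of the superoxide dismutase transcripts in control, 7.22% ± 0.83 in hypoxia and 9.87% ± 0.21 in hypoxia + rSRGN (SD, n = 3). Sod1 held 53.9% ± 0.98, 66.6% ± 4.06 and 61.6% ± 1.72, and Sod3 12.8% ± 0.48, 26.2% ± 3.49 and 28.5% ± 1.69. Sod3, the secreted form, thus held a smaller share than Sod2 in control and a larger one in the other groups.

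Among the glutathione peroxidases, Gpx3 held 45.7% ± 1.90 in control, 17.1% ± 2.32 in hypoxia and 23.2% ± 1.83 in hypoxia + rSRGN, and Gpx1 held 26.7% ± 0.94, 47.6% ± 2.01 and 44.4% ± 0.80 (SD, n = 3). Per kilobase of all exon bases the largest share was that of Gpx3 in control and of Gpx1 in the other groups. Per length of the principal transcript the leading shares overlapped within their SDs, with Gpx3 at 37.8% ± 1.86 and Gpx4 at 36.0% ± 1.78 in control, and Gpx1 at 43.5% ± 2.04 and Gpx4 at 43.2% ± 2.81 in hypoxia (SD, n = 3). Prdx3 held 52.9% ± 2.06 of the Prdx3 and Prdx5 sum in control, 36.6% ± 1.09 in hypoxia and 39.0% ± 2.10 in hypoxia + rSRGN. Of the 21 differences tested, 18 had the two-sided exact permutation p of 0.1 that is the smallest 3 against 3 libraries can give, with an adjusted p of 0.117, so none could pass 0.05. The 3 others were Sod3 (p = 0.5), Gpx4 and Prdx3 (each p = 0.2) in hypoxia + rSRGN against hypoxia, by the same exact test.

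**Figure D3:**
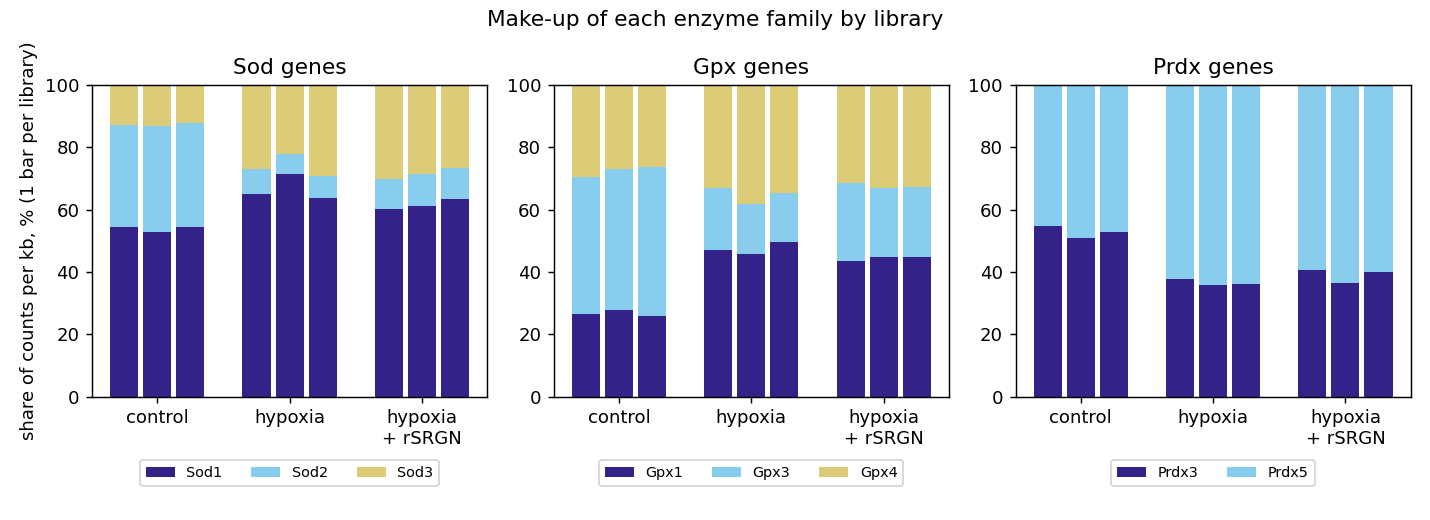
Share of each gene in the counts per kilobase of its family, in percent, with 1 stacked bar for each of the 9 libraries. The Sod2 band shrinks from 33.3% in control to 7.22% in hypoxia, and the Gpx3 band from 45.7% to 17.1%.

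Levels between genes depend on the length used. Per kilobase of all exon bases, control cells had Gpx3 highest (186 ± 12.1 CPM per kilobase, SD, n = 3), then Gpx4 (112 ± 3.44) and Gpx1 (108 ± 6.13), whose libraries overlapped, then Prdx3, Prdx5, Cat and Sod1 without overlap between neighbours. Txn2 (26.1 ± 1.68) and Sod2 (26.1 ± 0.74) overlapped, and Sod3 was lowest (10.0 ± 0.57). In hypoxia Gpx1 was first (186 ± 19.9 CPM per kilobase) and Gpx4 second (137 ± 2.21), Prdx5, Gpx3 and Sod1 overlapped at 73.2, 66.9 and 66.4 CPM per kilobase, and Sod2 was last (7.13 ± 0.39). The exon bases of Sod1 add up to 3970 although its principal transcript has 641. With the length of the principal transcript Sod1 came first in all 3 groups, at 261 CPM per kilobase in control and 411 CPM per kilobase in hypoxia, and Sod3 last in control and Sod2 last in the other groups. On that length Sod2 held 14.1% of the dismutase transcripts in control and 2.74% in hypoxia, so the size of each share, unlike its direction, rests on the length.

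The enzymes depend on donors of electrons and metal, listed as 25 genes of cofactor supply, of which 3 rose and 6 fell in hypoxia against control (median log2 fold change -0.07). Over all genes 26.4% were called higher and 25.1% lower. Txn1, the cytosolic thioredoxin, rose (log2 fold change 0.94 ± 0.07, SE, adjusted p = 7.81e-11 by edgeR), as did the glutaredoxin Glrx3 (0.77 ± 0.07). On the log2 scale Glrx, another glutaredoxin, fell by 2.05, and Txnip, an inhibitor of thioredoxin, fell by 1.79. Named after their values were seen, Txnrd2, the mitochondrial thioredoxin reductase that recharges Txn2, had a log2 fold change of -0.55 ± 0.12, Ccs, the copper chaperone of Sod1, of 0.34 ± 0.10 and Slc31a1, the copper importer, of -0.20 ± 0.08, and none of the 3 was called.

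Of 11 tested genes among the other peroxiredoxins, glutathione peroxidases and transferases, 4 rose and 2 fell, against 26.4% and 25.1% of all genes. Gpx7, a peroxidase of the endoplasmic reticulum without selenium, rose by a log2 fold change of 1.19 ± 0.11 (SE, adjusted p = 1.73e-09 by edgeR), and Mgst1, a microsomal glutathione transferase, by 1.14 ± 0.09. On the log2 scale Mgst3, another microsomal transferase, fell by 1.83. Aifm2, a suppressor of ferroptosis also called FSP1, fell by 1.11, and was listed here though it belongs to none of these families.

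Of 21 genes of selenoprotein synthesis and other selenoproteins, which include 3 thioredoxin reductases of the cofactor list, 7 rose and 8 fell. Over all genes the shares were 26.4% and 25.1%. Selenof and Selenoh rose (log2 fold change 1.25 ± 0.08 and 1.10 ± 0.10, SE), and Txnrd3 and Sephs2 fell (-1.17 ± 0.12 and -1.17 ± 0.14). Sephs2 makes selenophosphate, the donor for every selenocysteine, including that of the 3 peroxidases printed above.

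Of 15 tested sources of superoxide and peroxide, 5 rose and 4 fell, against 26.4% and 25.1% of all genes. The monoamine oxidase Maoa (log2 fold change 1.22 ± 0.08, SE) and the xanthine oxidoreductase Xdh (1.12 ± 0.08) rose. Cybb, the catalytic subunit of the phagocyte NADPH oxidase, fell from 5.72 ± 1.92 to 0.112 ± 0.052 CPM (SD, n = 3), beside the macrophage markers given above. Ddo, a peroxisomal oxidase of D-aspartate, fell from 52.4 ± 0.34 to 3.27 ± 1.00 CPM.

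Of 29 genes of peroxisome assembly and beta-oxidation, the compartment of Cat, none rose and 15 fell, where 26.4% of all genes were called higher and 25.1% lower. Their median log2 fold change was -0.59, against -0.54 for Cat itself and -3.67 for the 12 cardiomyocyte markers, and the part of cell composition was not tested. On the log2 scale Crat, a carnitine acetyltransferase, fell by 1.95, and Pxmp2, a channel of the peroxisomal membrane, fell by 1.77. Of the 29 genes, 4 had a positive log2 fold change, none of them called.

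Of 19 transcription regulators with known ties to these enzymes, 5 rose and 8 fell, against 26.4% and 25.1% of all genes. Maff and Mafk, small partners of NRF2 at the antioxidant response element, rose (log2 fold change 1.94 ± 0.10 and 1.55 ± 0.09, SE). Ppargc1a and Ppargc1b, coactivators of mitochondrial genes, fell from 109 ± 5.75 to 10.3 ± 2.14 CPM and from 31.9 ± 5.52 to 3.20 ± 0.59 CPM (SD, n = 3). The 15 genes of the response to hypoxia were listed as a check of the labels, and they did not move in 1 direction, with 5 higher and 7 lower. Among those whose mean level over the 9 libraries reached 1 CPM, Ndrg1 and P4ha1 rose most, by log2 fold changes of 1.48 and 1.41, and Pdk1 and Bnip3 fell most, with -3.06 and -2.13. Hk2, Ldha, Slc2a1 and Pgk1 were also called lower and Pfkfb3 higher, all of which act in glucose uptake or glycolysis and were named after their values were seen. The means of the first 4 went from 217 to 54.3 CPM, from 1095 to 522 CPM, from 114 to 69.3 CPM and from 609 to 404 CPM, and that of Pfkfb3 from 18.6 to 44.9 CPM. The control libraries varied widely for Bnip3 (52.3 ± 23.8 CPM, SD, n = 3) and for Egln3 (27.4 ± 20.3 CPM), which was not called and was named after its values were seen.

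In hypoxia + rSRGN against hypoxia, 3 genes of these lists were called, all higher: 1 of 15 sources and 2 of 19 regulators, where 2.27% of all genes were called higher. They were Ddo (log2 fold change 0.89 ± 0.18, adjusted p = 0.00216 by edgeR), Ppargc1a (0.67 ± 0.13, adjusted p = 0.00117) and Ppargc1b (0.60 ± 0.19, adjusted p = 0.0335), each still far below control. In the same comparison 10 of 12 cardiomyocyte markers were called higher (median log2 fold change 0.78), and the part of this in the 3 calls was not tested. All 25 genes of cofactor supply, the 11 other peroxidases and transferases, the 21 selenoprotein genes and the 29 peroxisomal genes were without a call.

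In hypoxia + rSRGN against control, 2 of the 25 cofactor genes were higher, Slc7a11, the cystine importer (log2 fold change 0.68), and Txn1 (0.67), and 7 lower, with Glrx (-2.26) and Txnip the most, the latter from 108 ± 9.88 in control to 27.0 ± 1.99 CPM (SD, n = 3). Of the other peroxidases and transferases 4 were higher and 3 lower, of the selenoprotein genes 6 and 7, of the sources 5 and 5, of the peroxisomal genes 0 and 15, of the regulators 6 and 7 and of the hypoxia genes 5 and 7. Over all genes 24.1% were called higher and 24.7% lower in this comparison. Among called genes whose mean level over the 9 libraries reached 1 CPM, Prdx4 (0.95), Mgst1 (0.91), Selenos (1.03), Selenof (0.95), Maoa (1.21), Xdh (1.16), Maff (2.31), Mafk (1.85), Ndrg1 (1.61) and Pfkfb3 (1.44) had the largest rises of their lists by log2 fold change. Mgst3 (-1.66), Aifm2 (-1.26), Sephs2 (-1.73), Txnrd3 (-1.28), Cybb (-5.27), Ddo (-3.10), Pxmp2 (-2.07), Ehhadh (-1.90), Ppargc1a (-2.72), Ppargc1b (-2.71), Pdk1 (-2.76) and Bnip3 (-2.11) had the largest falls of their lists under the same limit.

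**Figure D4:**
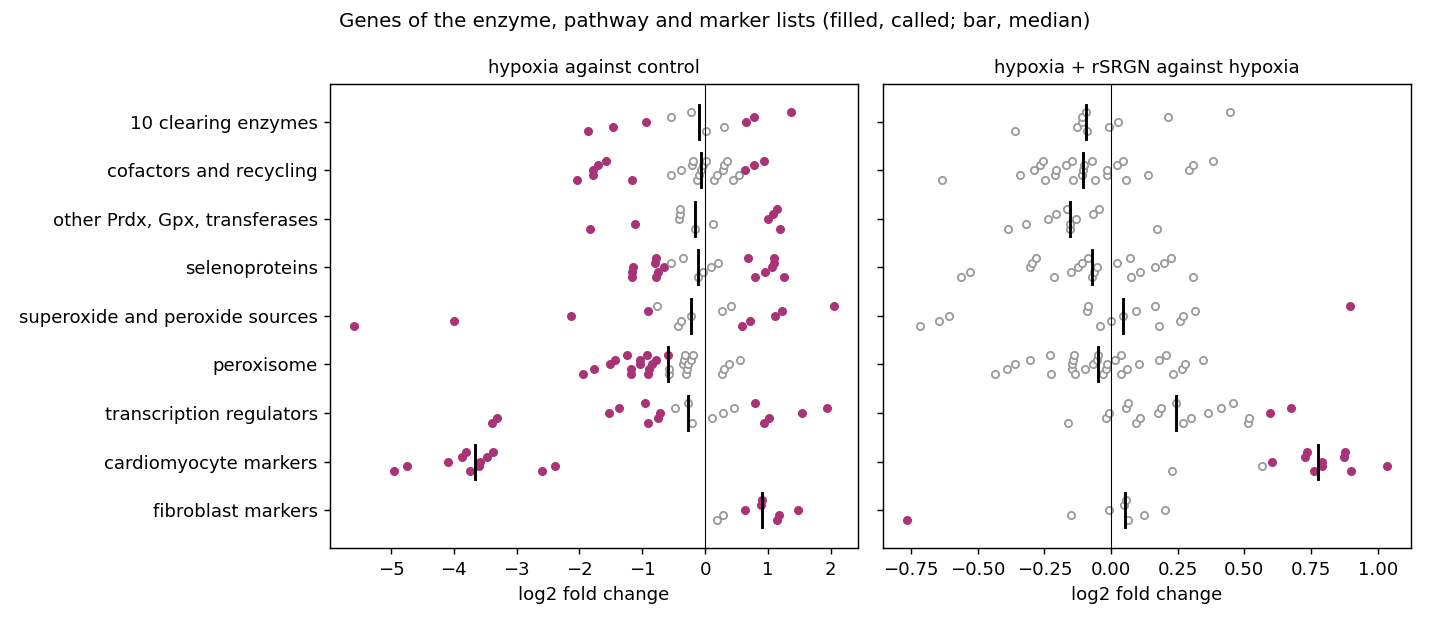
Log2 fold change of every tested gene of the 10 clearing enzymes, of 6 pathway lists and of the cardiomyocyte and fibroblast markers, for hypoxia against control and for hypoxia + rSRGN against hypoxia. Filled points were called, bars mark the list median, and the panels have different axes. The 10 enzymes spread from -1.87 to 1.37 in the left panel and from -0.36 to 0.45 in the right panel.

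The genes whose log2 CPM followed each enzyme most closely over the 9 libraries, among 14256 genes, are given as a description, since the libraries form groups that most genes separate. Sod2 was followed by Ogdh, a subunit of the mitochondrial oxoglutarate dehydrogenase, Mdh1, the cytosolic malate dehydrogenase, and Lmo7 (each Pearson's r = 0.999). Prdx3 was followed by Inafm2, Afg1l and Syt7 (each r = 0.996), Cat by Sv2a (0.997), Sin3a and Tuba4a (both 0.996), and Gpx3 by Cep350 (0.995), Arrb1 and Zfp568 (both 0.993).
Sod3 was followed by S100a10, Selenos and Snai2 (each r = 0.995), Gpx1 by Eif3i, Amdhd2 and Rps29 (each 0.994), Gpx4 by Zfp511 (0.993), Polr2h (0.992) and Gm4294 (0.991), and Sod1 by Dynlrb1 (0.99), Mocs2 (0.989) and Mnat1 (0.988). Txn2 was nearest to Rxrb (0.99), Prr12 (0.989) and Rpap1 (0.98), and Prdx5 to Cd151 (0.957), Gm44986 (0.952) and Lrfn3 (0.938), the weakest of the 10. Among the enzymes themselves, Sod2 and Prdx3 had r = 0.981, Sod2 and Cat 0.98, Sod2 and Sod3 -0.989, and Sod1 and Sod2 -0.836 over the same 9 libraries.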

How the data were processed

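The 10 genes and the gene lists were chosen with earlier results of these data known. The authors deposited whole-number counts per gene, without normalization, for the 9 libraries of poly(A) RNA. The file header names featureCounts 2.0.1 (paired ends, exons, no strand option) with GENCODE vM25, and the processing notes name HISAT2 and mm10. All 9 columns were used and 0 were left out, and 0 rows lacked a gene.

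In edgeR 4.0.16 (R 4.3.3), low counts were removed (filterByExpr), TMM factors set the scale, and a single model of the 3 group means across the 9 libraries gave quasi-likelihood tests of the 3 comparisons, adjusted by Benjamini-Hochberg. The step was tested on simulated data. Family shares were compared by exact two-sided permutation in Python 3.11.15, and matplotlib 3.10.9 drew the plots. Besides the 10 genes, the text names, per list and comparison, at most 2 called genes with the largest rise and 2 with the largest fall (mean of at least 1 CPM), and the 3 genes most correlated with each enzyme. Others are marked as chosen after their values were seen. Counting of 50-base words and the windows around TGA used GENCODE vM21. Totals of 16583985 to 22781557 counts limit precision less than the spread between libraries, since chi-square per degree of freedom between replicates was 3.81 to 14.6. Alternatives were DESeq2 1.42.0, other scalings, filters and limits, a fit of 2 groups, a replicate block, removal of mitochondrially encoded genes and each library left out. The paper that cites these data does not describe the cultures, and its other data were not analysed here.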

Additional observations from a re-analysis of the deposited data

How the results depend on the processing

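Of 570 values for single genes under the alternatives, 539 kept their direction and their side of the limits, 13 gained a call, 1 lost it and 17 changed sign. All 168 values for family shares kept their direction, including with principal transcript lengths, an alternative added after the data were seen. The sign changes were all of differences near 0. For Prdx5 in hypoxia against control the log2 fold change was -0.0195 with DESeq2, -0.0079 with RLE scaling, -0.0375 with a filter of at least 1 count, and from -0.0379 (without control replicate 1) to 0.0440 (without hypoxia replicate 1) with a library left out, also below 0 without hypoxia replicate 2. For Cat in hypoxia + rSRGN against hypoxia it was 0.026 with DESeq2, 0.022 with RLE scaling, 0.0051 with at least 1 count, 0.0068 with at least 10 counts in every library, 0.0095 with only the 2 groups, 0.0035 without mitochondrially encoded genes, and from -0.032 to 0.026 with a library left out. The sign changed without control replicate 1 (0.0050) or 2 (0.0046), hypoxia replicate 3 (0.0257) or hypoxia + rSRGN replicate 1 (0.0042) or 2 (0.0051). For Prdx3 it was from -0.0307 (without hypoxia + rSRGN replicate 1, the only sign change) to 0.1024 (without hypoxia + rSRGN replicate 2). The cause was not tested.

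With the filter of at least 1 count, Cat was called lower in both comparisons with control (-0.60 and -0.59), and Sod1 lost its call without hypoxia replicate 2 (0.53). With no fold limit, 5 of the 10 genes were lower in hypoxia against control, 2 were higher and 1 lower in hypoxia + rSRGN against hypoxia, and 4 were higher and 5 lower in hypoxia + rSRGN against control. Leaving out a library gave 0 to 1 genes higher in hypoxia + rSRGN against hypoxia, the 1 being Gpx3 without hypoxia replicate 1. Over all genes, 525 were called in that comparison, 899 by the unadjusted p, 2790 with no fold limit and 321 to 699 with a library left out, the lowest without hypoxia replicate 3. Of the 525, 72.57% were higher, of the calls by DESeq2 84.33%. The replicate numbers did not pair the libraries (correlations of same-numbered deviations -0.0374 to 0.0215). A replicate block gave 8550, 495 and 8096 calls against 8644, 525 and 8183 and changed no call of the 10 genes.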
